A study of Mus musculus with 3 samples.

Results

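The immunoglobulin heavy chain locus of the mouse was followed in RNA of primary T cells. Its members were all genes on chromosome 12 whose symbol starts with Ighv, Ighd, Ighj, Ighm, Ighg, Igha or Ighe, which gave 217 of the 50600 genes in the deposited count tables. They comprise 8 constant genes, 4 joining segments, 20 diversity segments and 185 variable segments, and span 2755.3 kb of mm10, from 113254830 to 116010093. The rule uses names and position and has no threshold. The locus itself was selected on its measured counts, since earlier results of these data had shown abundant Ighm, so the levels below are descriptions and the level of Ighm was not tested.

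The series measured RNA of T cells from the C57BL/6NJ strain in 3 libraries of a single group, numbered as biological replicates 2, 3 and 4. They were primary cells and not a cell line. For CD4+ T cells a differentiation protocol is named, and the labels give no treatment, time, age or sex, while the file headers carry the names Th0, activated and 00h. One donor identifier serves all 3 libraries, so separate animals are not shown and the spread between libraries may be technical. No control group was analysed here. Totals ran from 28340521 counts in replicate 4 through 47432940 in replicate 2 to 59698913 in replicate 3. All 8 T cell markers, among them Cd3e, Cd4 and Trac, were at 1 TPM or more (counts per exon base, scaled to the same total in each library) throughout. So were 12 of 15 B cell markers.

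In developing B cells the RAG recombinase joins a variable, a diversity and a joining segment of this locus, and the joined exon is spliced to the first constant gene, Ighm, which encodes the heavy chain of IgM. Ighd, just downstream, encodes that of IgD, and the Ighg, Ighe and Igha genes are reached by class switching, a second cut and rejoining through repeats that lie before each constant gene. T cells are known to carry joined diversity and joining segments and to transcribe the μ constant region without a joined variable segment, starting near the enhancer that lies between the joining segments and Ighm.

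Nearly all heavy chain counts came from Ighm alone. Ighm (ENSMUSG00000076617.9, 113418558 to 113422730, minus strand, 1886 exonic bases) held 30472, 37051 and 18961 counts in replicates 2, 3 and 4. Its level was 1227 TPM in replicate 2, 1180 TPM in replicate 3 and 1261 TPM in replicate 4, or 1223 ± 40.6 TPM (SD, n = 3). That placed it between rank 83 and rank 94 of all genes in each library. Its share of the locus counts was 97.9% in replicate 2 (95% exact binomial interval 97.7 to 98.1%), 97.4% in replicate 3 (97.2 to 97.6%) and 98.2% in replicate 4 (98.0 to 98.4%). Such intervals cover counting error only. The other 216 members together held 652, 984 and 349 counts.

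**Figure D1:**
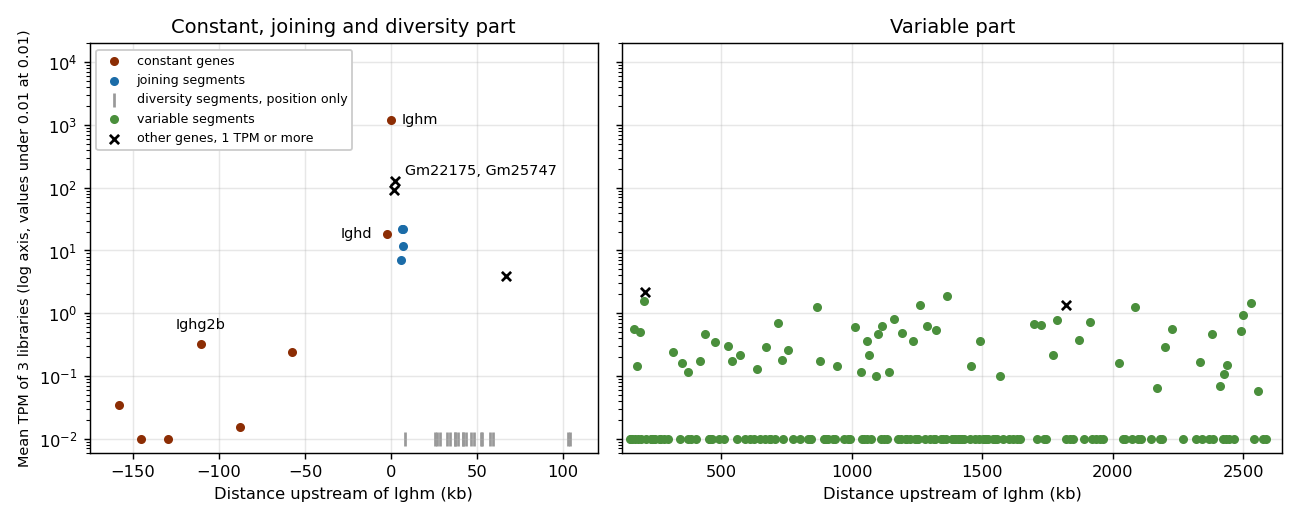
Mean TPM of 3 libraries (log axis) for each member against its distance upstream of Ighm in kb, with the constant, joining and diversity part on the left and the variable part on the right. Negative distances lie downstream of Ighm, values under 0.01 TPM are drawn at 0.01, crosses are other genes of the locus at 1 TPM or more, and ticks give the position of the diversity segments. Ighm stands at 1223 TPM, and no variable segment exceeds 1.87 TPM.

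Most members were not detected. At least 1 count in every library was found for 17 of 217 members (7.83%), against 31.6% of all genes. Without replicate 4, the library with the fewest counts, 34 of the 217 members had a count in both others. Of all 50600 genes 17209 did (34%), a larger share than that of the members. At least 1 count in any library was found for 71 members (32.7%), against 42.1%. At 1 TPM or more in every library there were 7 members (3.23%), against 23.4% of all genes. None of the 73 members annotated as pseudogenes had a count. The median member stood at 0 TPM, as did the median of all genes. Of the 8 constant genes 6 had a count, of the 4 joining segments 4, of the 20 diversity segments 2, and of the 185 variable segments 59.

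The constant genes fell into a high gene, an intermediate gene and a set near the counting floor. Ighd (113406604 to 113416324) stood at 18.3 TPM in replicate 2, 23.2 TPM in replicate 3 and 14.3 TPM in replicate 4, from 459, 735 and 216 counts. Ighm exceeded Ighd per exon base by 66.9-fold in replicate 2, 50.8-fold in replicate 3 and 88.4-fold in replicate 4. The ranges of the 2 genes did not come near each other in any library.

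The switched isotypes were rare and uneven. Ighg2b, the IgG2b gene, had 0, 4 and 19 counts in replicates 2, 3 and 4. Ighg3, the IgG3 gene, had 0, 11 and 1. Each of these genes therefore had most of its counts in a single library, and a different one. Igha, the IgA gene, had 2 counts in replicates 2 and 3 each and 0 in replicate 4, and Ighg1, the IgG1 gene, had 2 counts, both in replicate 3. Ighe, the IgE gene, and Ighg2c, the IgG2c gene, had 0 counts in all 3 libraries. For Ighe a count of 3 would be 0.167, 0.132 and 0.275 TPM in replicates 2, 3 and 4, and for Ighg2c 0.172, 0.136 and 0.284 TPM, so lower levels were not detectable at this depth. The Ighg genes resemble each other in sequence, and pairs that align to several places were not counted, so their values are uncertain.

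**Figure D2:**
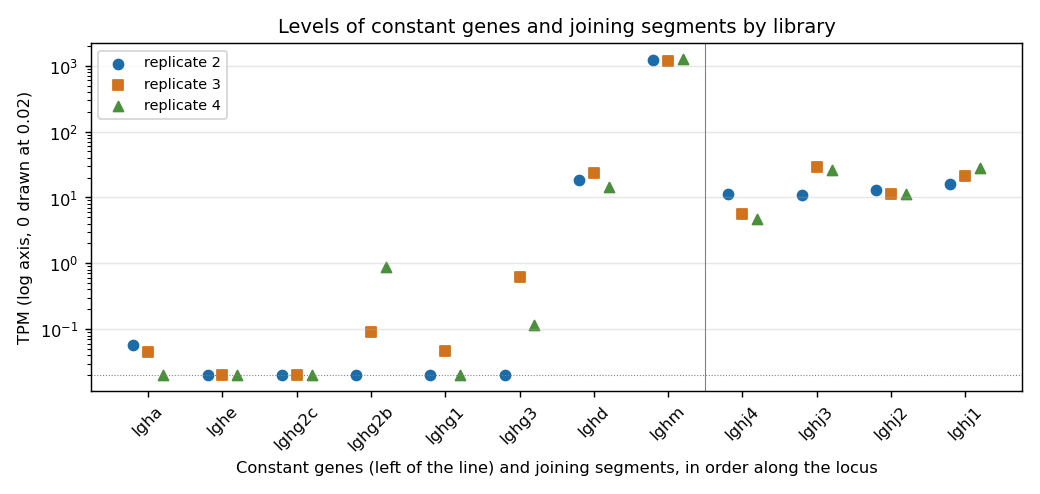
TPM (log axis, 0 drawn at 0.02) of the constant genes, left of the line, and of the joining segments, right of it, with 1 point per library. Ighm lies at 1180 to 1261 TPM, Ighd at 14.3 to 23.2 TPM and the other constant genes below 1 TPM.

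All 4 joining segments were detected in every library, at a few read pairs each. Their sequences, from GENCODE M21 transcripts on mm10 and written 5′ to 3′, are shown because reads in them mark RNA that runs through or into the joining cluster. The capitals mark CTGGGG, the longest run identical in all 4 when aligned from their 3′ ends, which holds the conserved tryptophan codon TGG of heavy chain joining segments.
Ighj1: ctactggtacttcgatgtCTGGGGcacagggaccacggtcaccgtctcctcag
Ighj2: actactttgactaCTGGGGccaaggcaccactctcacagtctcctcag
Ighj3: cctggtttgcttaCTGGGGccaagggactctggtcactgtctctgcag
Ighj4: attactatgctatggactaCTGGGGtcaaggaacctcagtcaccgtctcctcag
Each of the 4 holds the run once on the printed strand, by the way it was chosen, and not on the other strand. Of 80 other immunoglobulin and T cell receptor joining segments, 4 hold it on either strand (5.00%). Aligned from their 3′ ends, pairs of the 4 segments were 62.5 to 75.0% identical.

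Ighj1 (113429781 to 113429833), the segment farthest from Ighm, had 11, 19 and 12 counts in replicates 2, 3 and 4, at 15.8, 21.5 and 28.4 TPM. Ighj2 (113429468 to 113429567) had 17, 19 and 9 counts, at 12.9, 11.4 and 11.3 TPM. For this segment the count table adds a processed transcript, so its length there is 100 bases and not the 48 printed. Ighj3 (113429085 to 113429132) had 7, 23 and 10 counts, at 11.1, 28.8 and 26.1 TPM. Ighj4 (113428514 to 113428567), the nearest to Ighm, had 8, 5 and 2 counts, at 11.3, 5.56 and 4.65 TPM. Ighj4 had the lowest level in replicates 3 and 4, and in replicate 2 it lay just above Ighj3, so the order of the segments was not the same in all libraries.

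Summed over the 4 segments, joining RNA stood at 51.0, 67.3 and 70.5 TPM in replicates 2, 3 and 4. That is below Ighm by 4.29 ± 0.26 on the log2 scale (log2 ratio -4.29, SD, n = 3). The gap depends on how the short segments are treated, since a pair that covers only part of one is counted in full. With 200 bases added to every length the log2 ratio was -6.28, a level of joining RNA lower still against Ighm.

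Diversity segments are the shortest members, at 10 to 29 bases, and no TPM is given for them. Only the 2 nearest to the joining cluster had counts. They are shown because they are the sole diversity sequences with a read in these libraries.
Ighd4-1: ctaactgggac
Ighd3-2: agacagctcaggctac
Ighd4-1, also called DQ52 (113430528 to 113430538), had 10 counts in replicate 4 and 0 in the others (for the 10, 95% exact Poisson interval 4.80 to 18.4). Ighd3-2 (113448214 to 113448229) had 2 counts, both in replicate 3. The other 18 had 0 counts in every library. Ighd4-1 was thus seen in 1 library, the one with the fewest total counts.

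Between Ighm and the joining cluster lie 2 genes annotated as microRNAs, Gm25747 (113424645 to 113424722) and Gm22175 (113425150 to 113425227), on the strand of the locus. They are not members, and are shown because their reads place RNA upstream of the first Ighm exon, at 1.92 and 2.42 kb from it. Both are built of the pentamer GAGCT, in capitals, between copies of GGGGT and GGGCT. Repeats of GAGCT and GGGGT are the known make-up of the μ switch region, through which class switching of Ighm takes place.
Gm25747: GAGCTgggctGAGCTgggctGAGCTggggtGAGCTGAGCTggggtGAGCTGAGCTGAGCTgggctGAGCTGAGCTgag
Gm22175: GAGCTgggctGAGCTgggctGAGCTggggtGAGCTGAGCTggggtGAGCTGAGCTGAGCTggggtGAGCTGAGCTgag
Each holds GAGCT 10 times on the printed strand and not on the other. Of 2200 other annotated microRNA transcripts 386 hold it on either strand (17.5%) and 4 hold it 10 times or more, and of the 34 of the same length 5 hold it (14.7%). The pair differ by C64G, counted from 1 at the 5′ end of Gm25747, so reads inside them could align to both.

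Gm25747 had 71, 106 and 76 counts in replicates 2, 3 and 4, and Gm22175 had 116, 138 and 105. At 69.1, 81.6 and 122 TPM for the first and 113, 106 and 169 TPM for the second, both lay above every joining segment in every library and far below Ighm. Both were highest in replicate 4. Neither varied beyond genes of its abundance by edgeR's goodness of fit, with adjusted p of 1.00 each. That the reads come from microRNAs is not shown by these counts, which do not separate a hairpin from a longer RNA that crosses it.

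Variable segments, which encode most of the antigen contact of the heavy chain, added 148, 162 and 70 counts in replicates 2, 3 and 4. That was 0.476% of the locus counts in replicate 2 (95% exact binomial interval 0.402 to 0.558%), 0.426% in replicate 3 (0.363 to 0.497%) and 0.363% in replicate 4 (0.283 to 0.458%). All came from the 113 segments annotated as variable genes (biotype IG_V_gene), of which 59 had a count (52.2%). The 70 variable pseudogenes and 2 further annotated segments had none. Of the 59, 11 had counts in all 3 libraries, 25 in 2 and 23 in 1.

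The counts were spread over many segments. Ighv1-26 and Ighv1-64 led with 22 pooled counts each (5.79% of variable counts), and the first 10 segments held 161 of 380 counts (42.4%). Ighv1-26 had 8, 6 and 8 counts in replicates 2, 3 and 4. Ighv1-64 had 9, 12 and 1 counts and Ighv1-82 had 10, 1 and 7. Ighv1-18 had 0, 13 and 5 counts, Ighv3-6 had 3, 10 and 4, and Ighv5-6 had 1, 1 and 12. Ighv1-81 (6, 9 and 0), Ighv1-55 (8, 6 and 0), Ighv1-52 (2, 9 and 0) and Ighv1-50 (0, 7 and 3) were each missing from 1 library.

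The leading segment thus differed by library. It was Ighv1-82 in replicate 2 with 6.76% of the variable counts, Ighv1-18 in replicate 3 with 8.02% and Ighv5-6 in replicate 4 with 17.1%. Ighv5-6 lies 203 kb upstream of Ighm, in the part of the variable cluster nearest to it, and Ighv1-82 lies 2530 kb upstream, close to the far end.

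By family, Ighv1, the largest, had 234 of the 380 counts (61.6%) and 53 of the 113 variable genes (46.9%). Its share was 59.5% in replicate 2, 64.8% in replicate 3 and 58.6% in replicate 4. Ighv5 had 31 counts, Ighv2 and Ighv3 had 20 each, and Ighv11, Ighv13 and Ighv16 had 0. Ighv2 had 13, 7 and 0 counts in replicates 2, 3 and 4, and Ighv5 had 11, 7 and 13. The cluster was split by order into 92 nearer and 93 farther segments, and not by distance. Of 58 variable genes nearer to Ighm 31 had counts (53.4%), with 160 counts in all. Of 55 farther ones 28 had counts (50.9%), with 220 counts. Both ends of the cluster were thus represented.

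**Figure D3:**
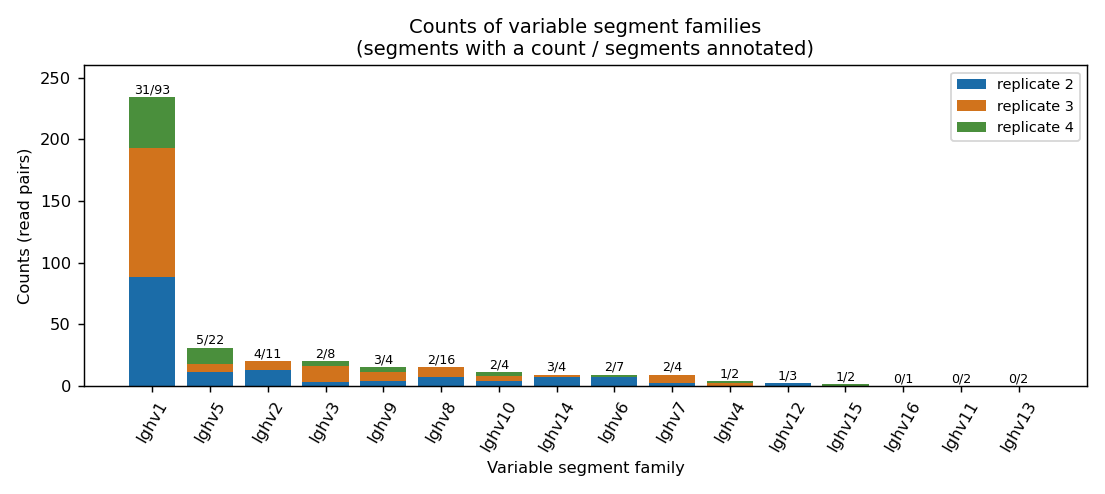
Counts of read pairs by variable segment family, stacked by library, with the number of segments with a count over the number annotated above each bar. Ighv1 holds 234 of 380 counts, with 31 of its 93 segments seen.

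The question of how much variable RNA accompanied the constant RNA was answered within each library, by the summed counts per base of variable segments as a share of those of constant genes. In the heavy chain locus this share was 2.45% in replicate 2, 2.21% in replicate 3 and 1.88% in replicate 4. In the T cell receptor β locus (Trb), which T cells rearrange and express, it was 87.1%, 83.9% and 86.3%, and in the immunoglobulin κ light chain locus (Igk) 82.1%, 77.1% and 95.2%. The heavy chain share lay below the Trb share by 5.31 ± 0.19 on the log2 scale (difference -5.31, SD, n = 3), 39.6-fold, in 3 of 3 libraries. The differences from the T cell receptor α locus (Tra), -4.63 ± 0.19, and from Igk, -5.28 ± 0.33, had the same sign in 3 of 3 libraries. Since Ighm, on whose counts the locus was selected, makes up nearly all of the constant counts, these differences are descriptions and no test is given for them.

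Against Ighd in place of all constant genes the picture turned. Variable RNA then came to 166%, 114% and 169% of Ighd in replicates 2, 3 and 4, and the difference from Trb was 0.78 ± 0.29 on the log2 scale. This alternative was chosen after the data were seen. It sets all variable counts over 1 minor constant gene, while in Trb all constant genes were kept, so the shares are not like measures. The low share thus depends on counting Ighm among the constant genes. Pairs that touch a joining or variable segment and a constant gene together are not counted for either gene under the options in the headers, in all of these loci.

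In joining segments too the heavy chain locus had the lowest share in every library. Their summed counts per base were 4.09%, 5.59% and 5.52% of the constant genes in the heavy chain locus, and 207%, 187% and 196% in Trb, in replicates 2, 3 and 4. In Igk they were 102%, 48.8% and 55.1%, from only 53 pooled counts. The low joining share of the heavy chain locus also depends on counting Ighm among its constant genes. Summed joining RNA, at 51.0, 67.3 and 70.5 TPM in replicates 2, 3 and 4, lay above Ighd alone, at 18.3, 23.2 and 14.3 TPM. The difference between the heavy chain and the other loci in joining segments was not tested.

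**Figure D4:**
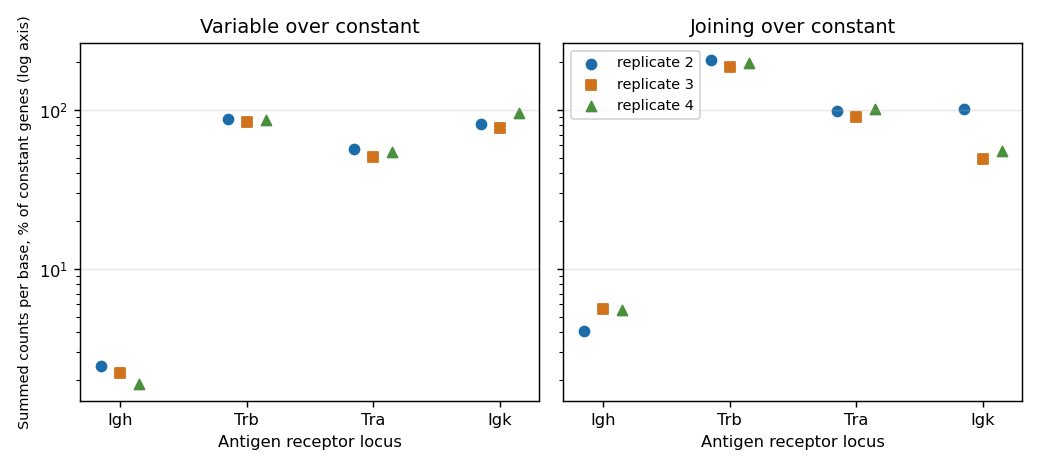
Summed counts per base of variable (left) and joining (right) segments as a percent of the constant genes of the same locus (log axis), with 1 point per library, for the heavy chain (Igh), T cell receptor β (Trb) and α (Tra) and κ light chain (Igk) loci. The heavy chain shares lie at 1.88 to 2.45% and 4.09 to 5.59%, below those of the other loci in every library.

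Transcripts of B cells were present beside these values. None of the 15 B cell genes was at 0 counts, and the list's summed level was 126 TPM in replicate 2, 149 TPM in replicate 3 and 90.5 TPM in replicate 4. The κ constant gene Igkc stood at 50.1, 64.9 and 35.4 TPM, the receptor signalling chain gene Cd79a at 15.1, 16.9 and 12.3 TPM, and its partner Cd79b at 15.2, 17.2 and 11.5 TPM. Of these 15 genes 11 were highest in replicate 3 and 13 lowest in replicate 4. Of the 8 T cell markers 1 was highest in replicate 3 and 4 were lowest in replicate 4. The shares over all genes were not counted. Ighd was also highest in replicate 3 and lowest in replicate 4. Ighm was highest in replicate 4 and lowest in replicate 3, but over a range of only 1.07 times. By edgeR's goodness of fit the unadjusted p of Ighm was 0.717, so no order is claimed for it. In RNA of whole samples, fewer cells of a type and less RNA per cell cannot be told apart.

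The ratios to these genes differed accordingly. Ighm exceeded Igkc per exon base by 24.5-fold in replicate 2, 18.2-fold in replicate 3 and 35.7-fold in replicate 4, a spread of 1.96 times. Ighd stayed at 0.366, 0.358 and 0.403 of Igkc, a spread of 1.13 times. Against the T cell receptor gene Trac, Ighm was at 0.361, 0.357 and 0.368, a spread of 1.03 times. The spread of Ighm was 1.02 times against Trbc2, 1.09 times against Cd4 and 1.47 times against Cd79a. For Ighd against Cd79a it was 1.19 times, and Ighd was not set against a T cell gene. Ighm itself ranged 1.07 times between libraries and Igkc 1.84 times. A gene that moves so little has a small spread against any steady gene. The part of B cells in the level of either Ighm or Ighd was not tested.

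**Figure D5:**
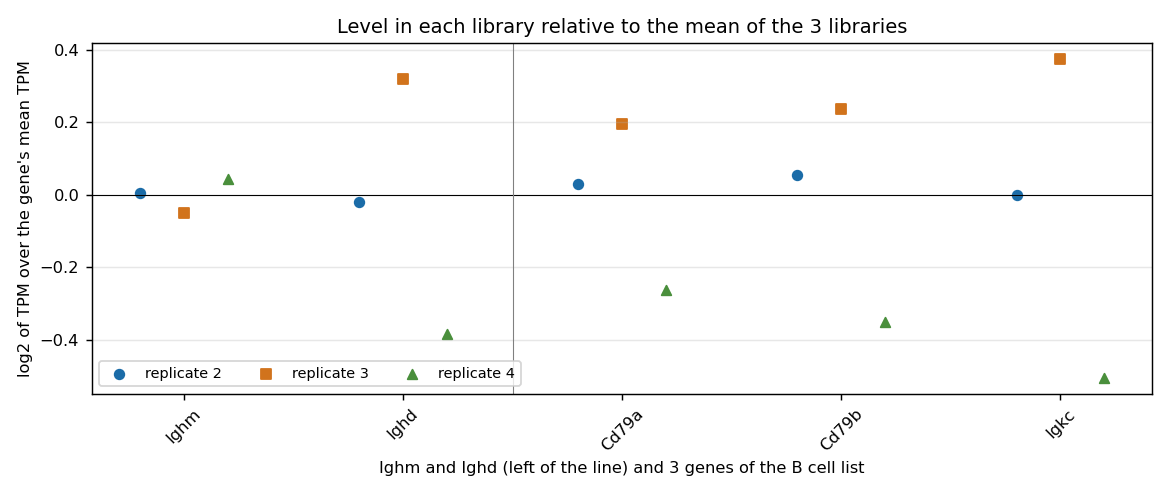
Level of Ighm, Ighd and 3 genes of the B cell list (Igkc, Cd79a, Cd79b) in each library, as log2 of TPM over the gene's mean of 3 libraries. The Ighm points lie close to 0 with replicate 4 highest, while Ighd and the 3 B cell genes have replicate 4 lowest.

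Other lists gave little. Of the pre-B cell genes Vpreb1, a surrogate light chain gene, was at 2.73, 2.97 and 1.58 TPM and Vpreb3 at 1.59, 1.54 and 0.584 TPM. Igll1, also a surrogate light chain gene, had 1 count. In the plasma cell list 4 of 6 genes reached 1 TPM in all libraries, led by Xbp1 at 51.5, 51.0 and 50.9 TPM, which many cell types express, then Irf4 and Prdm1, both also expressed by T cells. The fourth was Mzb1, a chaperone gene of antibody-secreting cells, at 1.17, 1.53 and 1.80 TPM. Below 1 TPM were Jchain, which links IgM into polymers, at 0.241, 0.382 and 0.498 TPM, and Sdc1, at 3, 13 and 2 counts. Rag1 and Rag2, the genes of the recombinase, had 0 counts, and Dntt, which adds bases at the joints, stood at 30.8, 22.2 and 27.3 TPM.

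The spread between libraries was tested for the members with enough counts. Only 5 of 217 had a mean of 10 counts or more, namely Ighm, Ighd, Ighj1, Ighj2 and Ighj3. By edgeR's goodness of fit, which asks whether a gene varied among the libraries beyond genes of its abundance, 0 of the 5 passed an adjusted p of 0.05, against 0.533% of the 13498 genes tested. At an unadjusted p under 0.05 there was 1, Ighd, against 4.1% of the genes tested, and there was none without replicate 3 or without replicate 4. Without replicate 2 there were 2 of 6 tested, Ighd and Ighg2b, against 4.03% of the 13465 genes tested in that setting. Ighg2b rested there on 4 and 19 counts in replicates 3 and 4. It reached a mean of 10 counts only through replicate 4, where it was highest, so filter and test drew on the same counts. The adjusted p of Ighd by edgeR was 0.796. For Ighm the unadjusted p was 0.717 and the adjusted p 1.00. Of the B cell list 0 of 15 passed, with 3 at an unadjusted p under 0.05. The order of libraries given above for Ighm, Ighd and these genes thus did not pass the test gene by gene.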

How the data were processed

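RNA of 3 libraries of mouse T cells in 1 group was analysed, with the group and replicate numbers taken from the labels. Each deposited table gives, for every gene, its count of read pairs without normalization. Per the file headers, this was done with featureCounts 1.4.6-p4 against GENCODE vM13, with both ends aligned, on the reverse strand, over exons grouped by gene. The headers set no option for pairs that align to several places or overlap several genes, so such pairs are lost. The build, mm10, is per the labels. Per the file headers, the other deposited column used is the summed exon length.

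From these, TPM were derived. Gene symbols were looked up by unversioned identifier (50376 genes matched), and biotypes and sequences from GENCODE M21, where 215 of the 217 members have the same start and end. The 217 identifiers carry 215 symbols. Spread was tested by edgeR's goodness of fit (version 4.0.16 in R 4.3.3) with only an intercept, TMM scaling and trended dispersion. It covered the 13498 genes whose mean count reached 10, and p-values were adjusted over all of these by Benjamini-Hochberg. It was tested on simulated data first. Ratios of loci sum counts per exon base over segments. The exact test planned for them is not reported, as they draw on the Ighm counts that selected the locus. The members and all lists were chosen with earlier results of these data known. Named genes follow a rule. It covers constant and joining genes, diversity segments with 3 or more pooled counts, the first 10 variable segments by counts and members past the test. It also covers list genes and other genes of the locus at 1 TPM or more. Ighd3-2, Ighv1-15 and genes below 1 TPM named beside them were added after their values were seen. The alternatives were scaling with DESeq2 1.42.0 size factors, other dispersions, filters, lengths and comparison loci, and each library left out. Python 3.11.15, pandas 2.3.3, scipy 1.17.1 and matplotlib 3.10.9 were used. Some genes of the lists are not reported here by name.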

Additional observations from a re-analysis of the deposited data

How the results depend on the processing

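No member passed edgeR's goodness of fit under any of the 8 alternatives (common dispersion, DESeq2 size factors, library size alone, lower count filters and each library left out). With a mean count of 1 or more, 54 members were tested by edgeR and 7 had an unadjusted p under 0.05 (against 5.12% of the 18647 genes tested at this filter): Ighd, Ighd4-1, Ighg2b, Ighg3, Ighv1-15, Ighv1-18 and Ighv5-6. Of these, Ighd4-1, Ighg3, Ighv1-15 and Ighv5-6 passed the filter only through the library where each was highest, so their low p is no support for variation. The lowest adjusted p of Ighd was 0.160, with a common dispersion. The Ighm level lay between 1204 and 1244 TPM without 1 library, was 1265 TPM without genes under 200 bases, and was 644 CPM with TMM scaling, which is another unit. Its share of the locus lay between 97.7 and 98.0% without 1 library. Members detected numbered 20 to 34 without 1 library, 34 being without replicate 4, which had the fewest counts. They numbered 7 at 1 TPM, 8 at 3 counts and 71 with a count in any library. The log2 ratio of joining segments to Ighm was -4.38 to -4.15 without 1 library, -6.28 with 200 bases added and -5.70 for the highest segment alone. The difference from Trb in variable over constant counts was -5.38 to -5.20 without 1 library, -6.82 with no length correction, -7.80 over the total variable length (added after seeing the data), and turned to 0.78 with Ighd alone. The log2 ratio of Ighm to Igkc was 4.40 to 4.89 without 1 library, and 6.38 with Cd79a in place of Igkc. No paired analysis was possible because there was 1 group and so no pairs of samples across groups, while the differences between loci were taken within each library.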

Other observations

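Genes inside the locus that belong to no antigen receptor were mostly silent. Of 54 such annotated genes 8 had a count, against 42.1% of all genes with a count in any library. At a mean of 1 TPM or more there were 5, and the share of all genes at that mean was not counted. Besides the microRNA genes of the switch repeats these were Adam6b, Gm9517 and Gm7019. Adam6b, a metalloprotease gene known for its role in sperm, lies 66.8 kb upstream of Ighm on the strand opposite to the locus and had 125, 130 and 97 counts in replicates 2, 3 and 4 (3.73, 3.07 and 4.78 TPM). Its paralog Adam6a, 121 kb upstream on the same strand as Adam6b, had 0 counts in every library. The processed pseudogene Gm9517 was at 2.61, 2.47 and 1.44 TPM, and Gm7019 at 1.44, 0.977 and 1.70 TPM.

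On its flanks 4 genes at 1 TPM or more by their mean were nearest to the locus. Downstream of Igha, Crip1, which encodes a small LIM domain protein, stood at 152, 182 and 179 TPM and Tedc1 at 4.93, 5.99 and 4.67 TPM. Upstream of the last variable segment, the zinc finger gene Zfp386 stood at 17.8, 15.7 and 13.9 TPM and Wdr60, a gene of ciliary transport, at 1.22, 0.774 and 1.08 TPM. None of the 4 passed edgeR's goodness of fit, with adjusted p of 1.00 each.

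Many variable segments resemble each other, and pairs that align to several places were not counted. The share of a segment's windows of 50 bases that also occur in another variable segment had a median of 21.9% over the 113 variable genes. More than 50% of windows were shared in 6 of the 59 genes with counts and 8 of the 54 without, and no window was shared in 6 and 14 of them. The difference was not tested.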
